A study of Mus musculus with 7 samples.

Results

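The 10 genes described here encode enzymes that make serine and pass its one-carbon unit through folate. They were chosen by symbol from a table of read counts for 24419 genes: Phgdh, Psat1, Psph, Shmt1, Shmt2, Mthfd1, Mthfd1l, Mthfd2, Mthfd2l and Aldh1l2. All 10 had enough reads to be tested. The cells were LLC1, an established line from a Lewis lung carcinoma of the mouse, cultured in DMEM with 10% fetal bovine serum, and their polyadenylated RNA was sequenced. The wild-type group held 4 libraries, and the Ddx54 knockdown group held 3 libraries of LLC1 cells given an shRNA against Ddx54, a nucleolar RNA helicase. No agent or time point is named for either group, and the labels give neither a control shRNA nor the number of shRNAs or clones. The comparison asks how the enzymes' mRNA differed between cells with and without the knockdown.

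Serine is made from the glycolytic intermediate 3-phosphoglycerate in a row of reactions run by Phgdh, Psat1 and Psph. Serine hydroxymethyltransferases then move a carbon from serine to tetrahydrofolate, leaving glycine, and this happens in parallel in the cytosol and in mitochondria. Mitochondria usually oxidise the carbon to formate, which leaves for the cytosol, where it is used for purines, thymidylate and methionine. Proliferating and tumour cells commonly express the mitochondrial branch at a high level, and the stress factor ATF4 is a known activator of several of these genes.

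The libraries held 14987324 to 18673395 counts. Expression is given in CPM, a library's counts divided by its TMM-scaled size so that libraries of different depth can be compared, as mean ± SD over n = 4 wild-type and n = 3 knockdown libraries. Fold changes are on the log2 scale, knockdown over wild-type, from edgeR's quasi-likelihood test, with standard errors (SE) and p-values adjusted over all 11594 tested genes. Ddx54 fell from 81.2 ± 2.08 to 43.6 ± 3.81 CPM, and its groups did not overlap. Nothing in the labels says that the replicates were separate cultures, so p-values measure only the spread between these libraries, which may be technical. Leukocyte and endothelial markers were close to absent, with Cd3e, Cdh5 and Tek listed at 0 in every library and summed levels of at most 5.16 and 0.784 CPM. Among epithelial markers Krt8 and Krt18 were expressed, Cldn4 was listed at 0, and Epcam and Cdh1 were below 1 CPM in every library. The 8 epithelial markers summed to 239 to 249 CPM in wild-type and 150.1 to 168 in knockdown. Most of that sum was Krt18, which fell from 217 ± 4.77 to 132 ± 4.02 CPM (-0.72, adjusted p = 4.62e-10, edgeR). Krt19 fell from 4.39 ± 0.490 to 1.08 ± 0.544 CPM (-2.03, adjusted p = 0.000811, edgeR), while Krt8 was at 20.3 ± 2.20 and 23.6 ± 7.61 CPM and did not pass. In the same order of groups, 6 fibroblast markers summed to 22.1 to 28.1 and to 28.6 to 31.8 CPM. Pdgfra made up most of that sum and was higher without overlap, but did not pass (0.37, adjusted p = 0.0578, edgeR). The other tested fibroblast markers, Dcn (-0.48, adjusted p = 0.379, edgeR) and Col1a1 (-1.38, adjusted p = 0.371, edgeR), had lower estimates and did not pass either. The part of these markers in the results below was not tested. Of 5 lung epithelial markers, Foxa2 fell from 87.8 ± 2.27 to 69.6 ± 3.86 CPM (-0.34, adjusted p = 0.00292, edgeR), Nkx2-1 was listed at 0, and Sftpc, Sftpb and Scgb1a1 were at most 1.11 CPM. Fewer expressing cells and less RNA per cell cannot be told apart in such bulk samples.

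Of the 10 enzymes, 5 were lower in knockdown and 1 was higher. Aldh1l2, Mthfd2, Psph, Shmt2 and Psat1 fell, Mthfd1 rose, and Phgdh, Shmt1, Mthfd2l and Mthfd1l did not pass. The members called were thus 60% of the 10, where 29.4% of all tested genes passed in either direction, 15.3% as lower and 14.1% as higher. The ranges of the groups did not overlap for 7 of the 10, against 35.1% of all tested genes. Of these, 6 lay wholly lower in knockdown and 1 wholly higher, where the shares among all tested genes were 17.6% and 17.5%. The median log2 fold change of the enzymes was -0.22, beside 0.001 for all tested genes. The enzymes were chosen with earlier results of these data known, so their distance from all tested genes is no independent evidence.

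**Figure D1:**
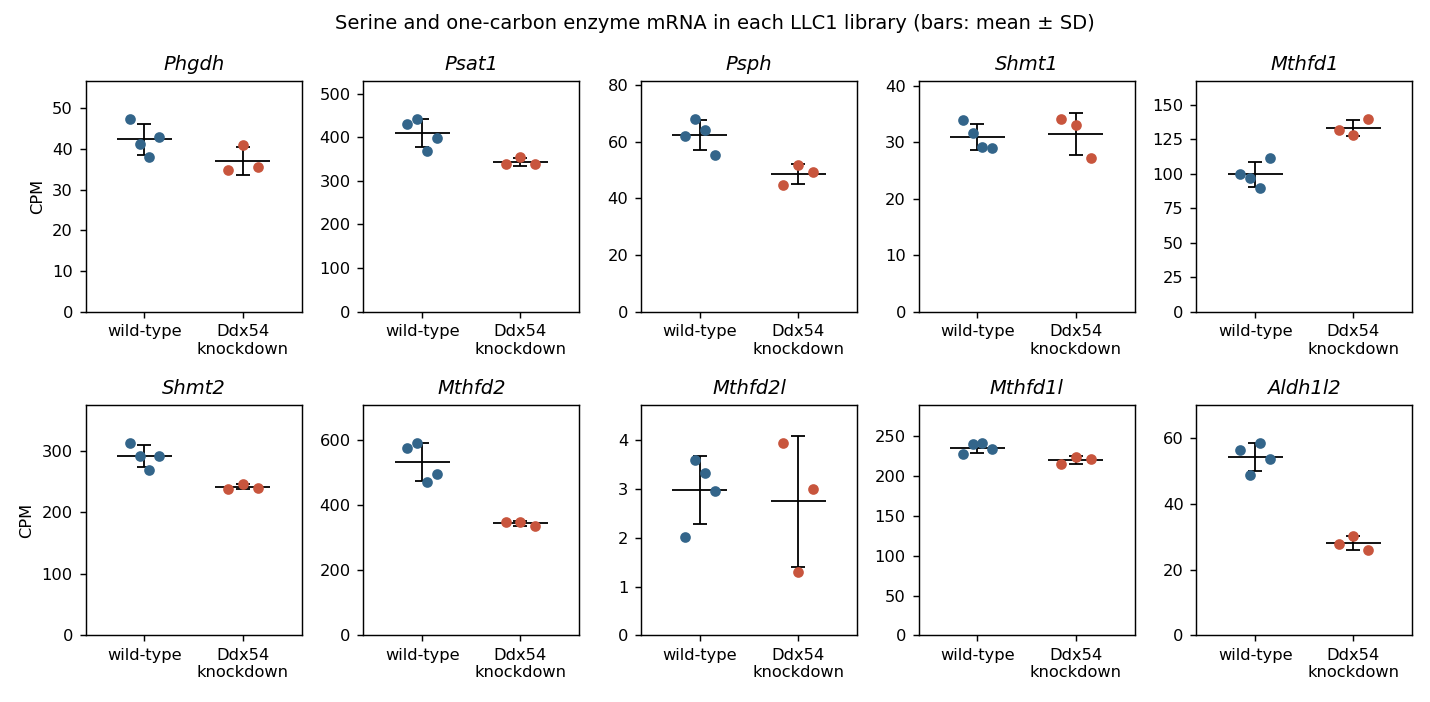
CPM of each of the 10 enzymes in every library, wild-type in blue and Ddx54 knockdown in red, with the mean and SD in black and each axis starting at 0. Aldh1l2 and Mthfd2 have the widest gaps between groups, Mthfd1 is the 1 gene whose knockdown libraries all lie above wild-type, and the groups of Phgdh, Shmt1 and Mthfd2l overlap.

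In the serine synthesis arm the later enzymes fell, by modest amounts. Phgdh, phosphoglycerate dehydrogenase, takes the carbon out of glycolysis in the first step. It was at 47.3, 41.3, 38.0 and 42.9 CPM in wild-type and at 34.8, 41.1 and 35.5 CPM in knockdown. Knockdown library 2 lay within the wild-type range, so the groups overlapped. The log2 fold change of Phgdh was -0.19 (SE 0.12, adjusted p = 0.249, edgeR), with a 95% interval from -0.43 to 0.051 that includes no change as well as a fall as large as that of Psat1. A processed pseudogene, Phgdh-ps1, is annotated, so reads of Phgdh could be split with it.

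Psat1, the aminotransferase of the next step, was at 429, 441, 369 and 399 CPM in wild-type and at 338, 355 and 338 CPM in knockdown. The lowest wild-type library lay only slightly above the highest knockdown library. Psat1 fell to 83.9% of wild-type, with means of 409 ± 32.3 and 344 ± 9.86 CPM (-0.25, SE 0.065, adjusted p = 0.0032, edgeR). Psph, the phosphatase that releases free serine, was at 62.1, 67.9, 64.3 and 55.4 CPM in wild-type and at 44.7, 51.7 and 49.4 CPM in knockdown. All 3 knockdown libraries were below the lowest wild-type library. Psph fell from 62.4 ± 5.26 to 48.6 ± 3.53 CPM (-0.36, SE 0.10, adjusted p = 0.00772, edgeR). Its call was lost without Ddx54 knockdown replicate 1 (-0.30, adjusted p = 0.0619). The antisense gene Cct6a shares 452 bases, or 10.4%, of the annotated exons of Psph. Without a stated strand setting its reads cannot be told apart there. Cct6a itself did not pass (0.059, adjusted p = 0.562, edgeR). The part of such reads in the change of Psph was not tested.

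The mitochondrial arm held the largest changes. Aldh1l2, the mitochondrial formyltetrahydrofolate dehydrogenase, oxidises the one-carbon unit to CO2 and yields NADPH. It was at 56.3, 48.8, 58.5 and 53.7 CPM in wild-type and at 27.8, 30.3 and 26.02 CPM in knockdown. The highest knockdown library was far below the lowest wild-type library. Aldh1l2 fell to 51.6% of wild-type (log2 fold change -0.95, SE 0.12, adjusted p = 9.91e-08, edgeR). D10Wsu102e, a gene on the other strand, shares 14.1% of the annotated exons of Aldh1l2. It was at 89.1 to 99.5 CPM in wild-type and at 103 to 116 CPM in knockdown, the opposite direction, and did not pass (adjusted p = 0.0672).

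Mthfd2 encodes the mitochondrial methylene-tetrahydrofolate dehydrogenase and cyclohydrolase, an enzyme low in most adult tissues and high in many tumours. It was at 576, 589, 471 and 494 CPM in wild-type and at 348, 348 and 335 CPM in knockdown. The knockdown libraries were tightly grouped and all below the wild-type range. Mthfd2 fell from 533 ± 58.8 to 344 ± 7.71 CPM, 64.6% of wild-type (-0.63, SE 0.070, adjusted p = 1.21e-08, edgeR). Shmt2, the mitochondrial serine hydroxymethyltransferase that feeds Mthfd2, was at 312, 291, 269 and 291 CPM in wild-type and at 238, 246 and 239 CPM in knockdown. Its groups did not overlap either, but its fall was smaller, from 291 ± 17.6 to 241 ± 4.07 CPM (-0.27, SE 0.066, adjusted p = 0.0016, edgeR).

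The last mitochondrial step and the second dehydrogenase did not pass. Mthfd1l, the mitochondrial formyltetrahydrofolate synthetase that releases formate, was at 227, 240.0, 241 and 234 CPM in wild-type and at 215, 224 and 221 CPM in knockdown. Its groups did not overlap, yet the fold change was only -0.097 (SE 0.064, adjusted p = 0.283, edgeR; 95% interval -0.23 to 0.034). That interval leaves out the estimate for Shmt2, -0.27, but overlaps the 95% interval of Shmt2, -0.40 to -0.14. A difference between the changes of Mthfd1l and Shmt2 was not tested. Mthfd2l, a paralog of Mthfd2 with the same activity, was scarce, with 37 to 53 counts per wild-type library and 24 to 66 counts per knockdown library. Its levels were 2.02, 3.60, 3.33 and 2.96 CPM in wild-type and 3.94, 1.30 and 2.99 CPM in knockdown. Knockdown held both the highest and the lowest library. The 95% interval of its fold change ran from -1.02 to 0.78, which includes changes of either sign. The parts of low counts and of spread between libraries in the width of that interval were not tested.

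The cytosolic arm did not share the direction of the falls. Mthfd1, the cytosolic enzyme that combines the synthetase, cyclohydrolase and dehydrogenase steps, was at 100.1, 97.1, 89.7 and 112 CPM in wild-type and at 132, 128 and 139 CPM in knockdown. Every knockdown library was above every wild-type library. Mthfd1 rose from 99.6 ± 9.14 to 133 ± 5.66 CPM (0.42, SE 0.080, adjusted p = 0.000121, edgeR). Shmt1, the cytosolic serine hydroxymethyltransferase, was at 33.9, 31.6, 29.2 and 28.9 CPM in wild-type and at 34.0, 32.997 and 27.2 CPM in knockdown. Its groups overlapped almost fully (0.024, SE 0.13, adjusted p = 0.918, edgeR; 95% interval -0.24 to 0.29). Added up per library, the 5 mitochondrial enzymes gave 1174, 1173, 1044 and 1076 CPM in wild-type and 834, 850.0 and 824 CPM in knockdown. The 2 cytosolic enzymes gave 134, 129, 119 and 141 CPM in wild-type and 166, 161 and 167 CPM in knockdown. Mthfd2 was the largest single part of the mitochondrial sum, followed by Shmt2 and Mthfd1l, and Mthfd1 was the larger part of the cytosolic one.

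**Figure D2:**
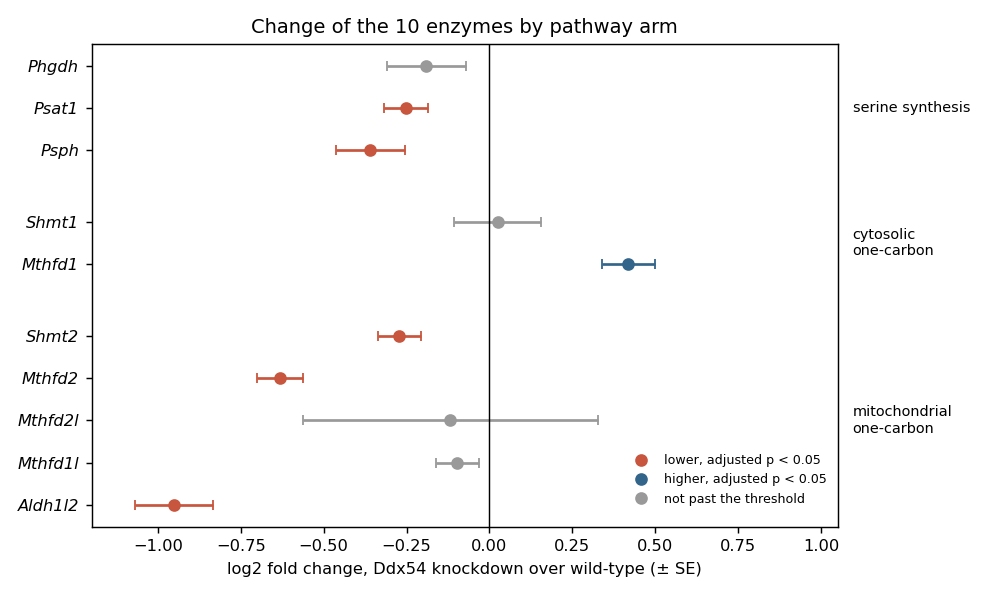
Log2 fold change of each enzyme, Ddx54 knockdown over wild-type, with its SE, grouped by pathway arm and coloured by the call at adjusted p under 0.05. Aldh1l2 at -0.95 and Mthfd1 at 0.42 mark the ends of the range, and Mthfd2l has the widest bar, with an SE of 0.44.

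Promoter sequence was compared for the most abundant enzymes that fell, Psat1 and Mthfd2, and for Mthfd1, the enzyme that rose. RefSeq start sites on GRCm38.p6, the assembly also called mm10, gave 10 windows for 9 of the enzymes, each from 250 bases before to 50 bases after the start. Aldh1l2 had no window. The 120 bases directly before the start are shown 5′ to 3′ on the gene's strand, with each CCAAT box, the CCAAT pentamer bound by the factor NF-Y, or its reverse complement, in capitals. The regions are chr19:15925060-15925179 for Psat1 (minus strand, 1 of its 2 start sites), chr6:83317605-83317724 for Mthfd2 (minus strand) and chr12:76255112-76255231 for Mthfd1 (plus strand).
Psat1: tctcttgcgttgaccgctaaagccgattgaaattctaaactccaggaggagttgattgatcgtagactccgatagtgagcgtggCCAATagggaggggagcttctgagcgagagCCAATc
Mthfd2: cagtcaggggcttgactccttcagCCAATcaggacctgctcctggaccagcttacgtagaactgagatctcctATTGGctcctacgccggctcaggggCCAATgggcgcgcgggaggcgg
Mthfd1: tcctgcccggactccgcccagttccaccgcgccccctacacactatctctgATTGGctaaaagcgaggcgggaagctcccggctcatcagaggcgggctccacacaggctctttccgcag
The stretch of Mthfd2 holds 3 CCAAT boxes, that of Psat1 2 and that of Mthfd1 1. For Psat1 the start site with more CCAAT boxes was the one shown, and the window of its other start site had none. The count for Psat1 thus follows from that choice. Among the stretches shown, the motif stood before genes that fell and before the gene that rose.

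Over the whole windows and both strands, CCAAT was found in 6 of the 10 windows of the enzymes, 1 each for Phgdh, Psat1, Psph, Shmt1, Mthfd1 and Mthfd2, and in 37.4% of all 32851 windows. The core of the amino acid response element, TGATGNAA, through which ATF4 binds, was in none of the 10 windows and in 3.97% of all windows. The E-box CACGTG, a Myc site, was in none of the 10 and in 7.15% of all. The antioxidant response element core TGACNNNGC was in the windows of Phgdh and Psph and in 12.4% of all. In Phgdh and Psph it did not overlap the CCAAT boxes. A match is only a match of letters, and its absence says only that these letters are not in this window.

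Per exon length, the enzymes spanned a wide range of levels, and the mitochondrial branch lay mostly above the cytosolic one. Levels here are CPM per kilobase of merged annotated exons. In wild-type Mthfd2 was the most abundant, at 153 ± 16.9, followed by Psat1 at 96.2 ± 7.59 and Shmt2 at 93.5 ± 5.66. Mthfd1l was at 53.1 ± 1.45, Mthfd1 at 22.4 ± 2.06, Phgdh at 17.0 ± 1.55 and Psph at 14.4 ± 1.21. Shmt1, at 7.95 ± 0.605, and Aldh1l2, at 7.24 ± 0.558, came near the end, before Mthfd2l at 0.448 ± 0.104. The wild-type ranges of 3 pairs of neighbours overlapped, Psat1 with Shmt2, Phgdh with Psph, and Shmt1 with Aldh1l2. The order of the knockdown means was the same. With the length of the longest coding transcript in place of merged exons, the wild-type mean of Psph moved from rank 7 to rank 5, ahead of Mthfd1 and Phgdh. The wild-type ranges of Psph and Mthfd1 then overlapped. On that length the knockdown order differed, with Mthfd1 at rank 5 and Psph at rank 6.

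**Figure D3:**
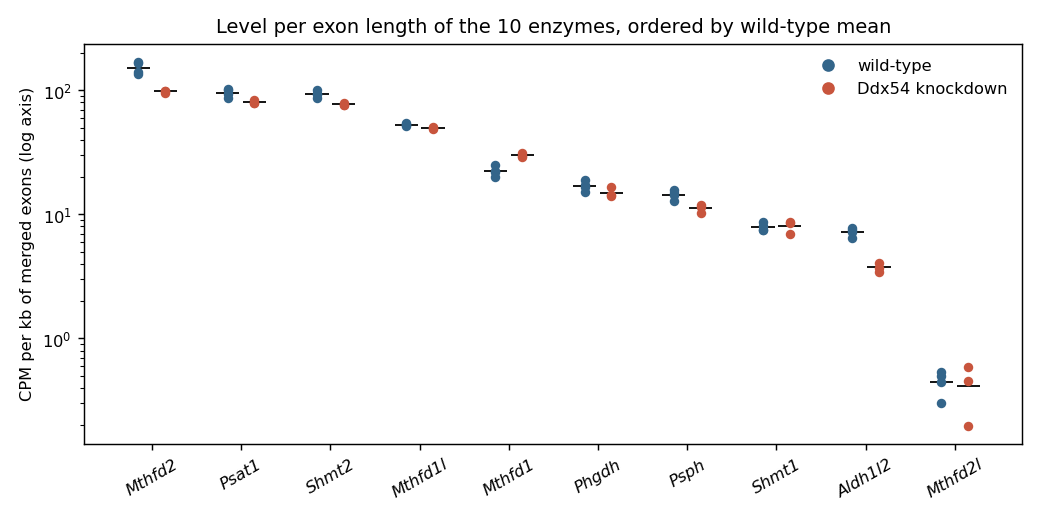
CPM per kilobase of merged exons on a log axis, every library as a point and the group mean as a line, with the enzymes ordered by the wild-type mean. Mthfd2, at 153 in wild-type, stays first in knockdown at 98.6, and Mthfd2l is last in both groups.

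As a share of the summed level per kilobase of the 10 enzymes, Mthfd2 went from 32.8 ± 1.59% in wild-type to 26.3 ± 0.513% in knockdown. Mthfd1 went from 4.83 ± 0.498% to 8.002 ± 0.465%. The share of Aldh1l2 went from 1.56 ± 0.201% to 0.996 ± 0.0595%. Psat1 and Shmt2 kept close to their shares, at 20.7 ± 0.387% against 21.5 ± 0.215% and at 20.1 ± 0.706% against 20.7 ± 0.0785%. Their mean levels still went down, from 96.2 to 80.8 and from 93.5 to 77.5 CPM per kilobase. Shares depend on each other, so a fall of Mthfd2 alone raises the shares of the other enzymes.

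Whether pairs of enzymes moved by different amounts was asked with the log2 ratio of their counts within each library, which does not depend on library scaling. For each of 5 ratios the difference between the group means was put to an exact permutation test, two-sided, whose smallest possible p is 0.0286 with 4 against 3 libraries, and p-values were adjusted over the 5. Mthfd1l over Mthfd1, the formate-releasing mitochondrial enzyme over its cytosolic counterpart, was 1.18, 1.31, 1.43 and 1.07 in wild-type and 0.709, 0.805 and 0.666 in knockdown. The groups did not overlap, and the mean fell by 0.52 (permutation p = 0.0286, adjusted p = 0.0714). Shmt2 over Shmt1, mitochondrial over cytosolic, was 3.20, 3.20, 3.20 and 3.33 in wild-type and 2.81, 2.89 and 3.13 in knockdown. It also fell without overlap, by 0.29 (permutation p = 0.0286, adjusted p = 0.0714). Both are at the smallest p these group sizes allow, and with only 2 of 5 ratios there the adjusted p cannot go below 0.0714. Missing the threshold thus depended on the group sizes and also on the other ratios, which did not reach that smallest p (permutation p from 0.286 to 0.514).

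The ratios within an arm moved less relative to their spread. Psat1 over Phgdh changed by -0.059 (permutation p = 0.514, adjusted p = 0.514), and Psph over Phgdh by -0.17 (permutation p = 0.286, adjusted p = 0.476). Thus Psat1 and Psph passed against wild-type and Phgdh did not, but a difference between their changes was not detected. Mthfd2 over Mthfd2l changed by -0.40 (permutation p = 0.4, adjusted p = 0.5). It ranged from 7.13 to 8.14 in wild-type and from 6.46 to 8.03 in knockdown, and leaving out Ddx54 knockdown replicate 2 or 1 moved the difference to -0.87 or -0.082.

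**Figure D4:**
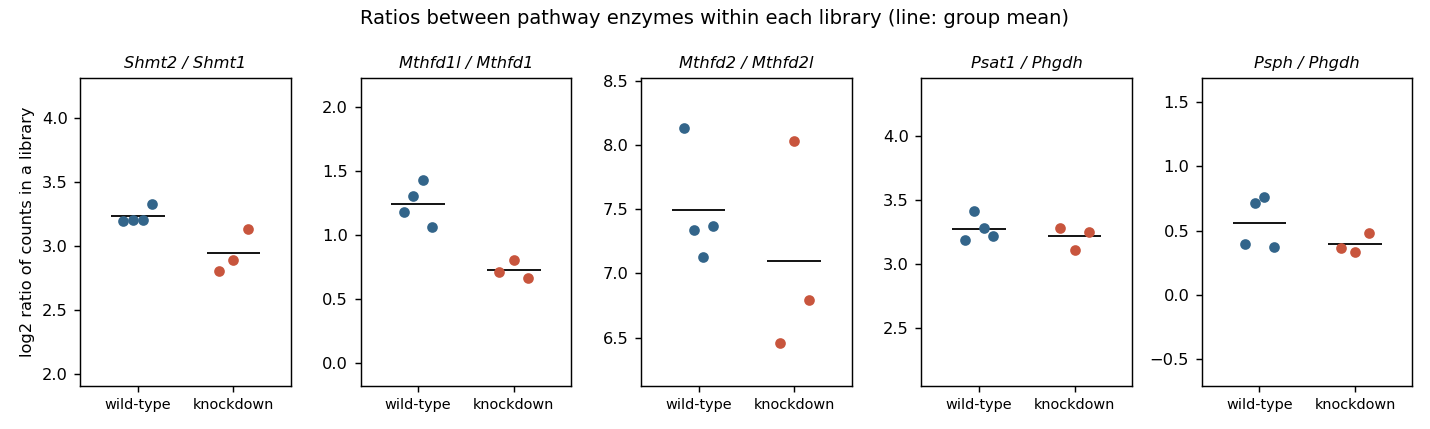
Log2 ratio of the counts of 2 enzymes within each library, with the group mean as a line and all axes 2.4 units tall. The knockdown libraries lie below wild-type for Shmt2 over Shmt1 and for Mthfd1l over Mthfd1, and the groups overlap for the other 3 ratios.

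Genes around the enzymes were taken from 8 lists, and they moved in both directions. Of the 61 tested genes in these lists, 16 fell, 10 rose and 35 did not pass, with a median log2 fold change of 0.03. The genes called were 42.6% of those tested, beside 29.4% of all tested genes. The lists were chosen with earlier results of these data known, so that excess is no independent evidence. Upstream, the list of glycolytic steps around 3-phosphoglycerate had 3 of 6 tested genes lower (median -0.19), beside 15.3% of all tested genes. Pgk1, which makes 3-phosphoglycerate, fell from 18.5 ± 2.13 to 11.03 ± 1.13 CPM (-0.75), Gapdh, the preceding enzyme, fell by 0.41, and Eno2, an enolase, by 0.78. The call of Eno2 did not hold without wild-type replicate 1 or 3 or when any of the 3 knockdown libraries was left out, nor with no filter on low counts, limma-voom or the replicate block (adjusted p from 0.0562 to 0.127). The list then had 2 lower genes. Genes of this list have near-identical copies, so their counts are uncertain, and Eno1, the main enolase gene, was listed at 0 in every library.

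Serine transport and use had 5 of 14 tested genes lower and 1 higher (median -0.15), beside 15.3% and 14.1% of all tested genes. Slc1a4, a neutral amino acid exchanger that carries serine, was at 88.0 to 95.7 CPM in wild-type and at 55.4 to 62.2 CPM in knockdown, with no overlap (-0.66, SE 0.089, adjusted p = 5.54e-07, edgeR). Srr, the racemase that makes D-serine, fell by 0.78, and Serinc3, a membrane protein of the serine incorporator family, by 0.50. Serinc5, of the same family, fell by 1.83, but from only 2.36 ± 0.516 CPM. It did not pass once wild-type replicate 2, 3 or 4 was left out, or Ddx54 knockdown replicate 2 or 3 (adjusted p from 0.0613 to 0.179, edgeR). Slc38a1, a glutamine transporter and the 1 gene that rose, went from 222 ± 2.75 to 269.9 ± 17.8 CPM (0.28), and Slc38a2, a related transporter, fell by 0.18; both are named after their values were seen. Slc38a2 did not pass once wild-type replicate 1, 3 or 4 was left out, or Ddx54 knockdown replicate 1 or 2 (adjusted p from 0.0684 to 0.138, edgeR). Sfxn1, the mitochondrial serine carrier, had a fold change of -0.12 and did not pass (adjusted p = 0.16, edgeR; named after its value was seen).

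The 7 tested genes of folate uptake and folate forms had a median log2 fold change of -0.057. The list of glycine cleavage and other mitochondrial one-carbon genes had 2 of 4 tested genes higher (median 0.24), beside 14.1% of all tested genes. Gcsh, the lipoyl-carrying protein of glycine cleavage, rose from 52.5 ± 2.62 to 70.4 ± 4.71 CPM (0.42, adjusted p = 0.000949, edgeR). Mtfmt, which formylates the mitochondrial initiator tRNA, rose by 0.48. It missed the threshold with wild-type replicate 2 or 4 or Ddx54 knockdown replicate 1 or 2 left out, and with upper-quartile factors or DESeq2 (adjusted p from 0.0521 to 0.237). Dld, the dihydrolipoamide dehydrogenase that glycine cleavage shares with other complexes, was at 94.1 ± 4.46 and 98.1 ± 6.59 CPM and did not pass (0.059, adjusted p = 0.638, edgeR; named after its value was seen). Amt and Gldc, the other parts of glycine cleavage, were nearly undetected. Amt had no count in any library, which by sampling alone allows up to 0.2 CPM in the shallowest, and Gldc was at most 0.545 CPM. Whether the 0 came from the way reads were assigned was not tested.

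Downstream, in purine ring and thymidylate synthesis, 4 of 12 genes rose and 2 fell (median 0.16), beside 14.1% and 15.3% of all tested genes. Tyms, thymidylate synthase, was at 24.1, 31.7, 23.8 and 30.7 CPM in wild-type and at 36.8, 44.3 and 47.7 CPM in knockdown. The groups did not overlap (0.64, SE 0.13, adjusted p = 0.000338, edgeR). Tk1, thymidine kinase, rose from 136 ± 11.5 to 207 ± 13.04 CPM (0.61), and Pfas, of the purine ring, by 0.36. Gart, which takes one-carbon units from folate into that ring, rose by 0.25. Adss, of AMP synthesis, fell by 0.27 and Impdh2, of GMP synthesis, by 0.20; Gart and Impdh2 are named after their values were seen. Pfas lost its call without Ddx54 knockdown replicate 2 (adjusted p = 0.0805), and Gart without wild-type replicate 2 or Ddx54 knockdown replicate 3 (adjusted p = 0.0992 and 0.197). Impdh2 missed it with wild-type replicate 1 left out, or Ddx54 knockdown replicate 1 or 2 (adjusted p from 0.0574 to 0.0909, edgeR).

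In the methionine cycle 1 of 8 tested genes rose and 2 fell (median 0.04), where 29.4% of all tested genes passed in either direction. Mat2a, the catalytic subunit that makes S-adenosylmethionine, was at 273, 271, 321 and 275 CPM in wild-type and at 469, 448 and 467 CPM in knockdown. This was the clearest rise in the list, with no overlap (0.69, SE 0.065, adjusted p = 4.23e-10, edgeR). Ahcyl1 and Ahcyl2, relatives of the S-adenosylhomocysteine hydrolase, fell by 0.22 and 0.45. Ahcyl1 lost its call without Ddx54 knockdown replicate 3 (adjusted p = 0.144), and Ahcyl2 without wild-type replicate 3 or 4 or Ddx54 knockdown replicate 2 or 3 (adjusted p from 0.104 to 0.232, edgeR). In glutathione synthesis 1 of 5 genes rose and 1 fell (median 0.17), beside the same 29.4% of all tested genes. Cth, which releases cysteine from cystathionine, fell from 27.8 ± 4.63 to 9.72 ± 2.67 CPM (-1.51, SE 0.18, adjusted p = 8e-08, edgeR). Gclm, a subunit of glutamate-cysteine ligase, rose from 45.3 ± 4.38 to 83.4 ± 4.23 CPM (0.88, adjusted p = 1.41e-08, edgeR).

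Of 5 genes known to regulate serine enzyme genes, 3 fell and 2 did not pass, where 15.3% of all tested genes were lower. Their median log2 fold change, -0.57, is the value of Kdm4c, which did not pass. Atf4 was at 1928, 2023, 1673 and 1854 CPM in wild-type and at 1274, 1110.3 and 1056 CPM in knockdown. Its groups were far apart (-0.71, SE 0.067, adjusted p = 5.82e-10, edgeR). ATF4 is controlled to a large part at translation, so its mRNA does not give its protein level. Nfe2l2, which encodes the antioxidant factor NRF2, fell from 472 ± 9.43 to 363 ± 14.4 CPM (-0.38, adjusted p = 8.13e-06, edgeR), and Myc fell by 1.01. The histone methyltransferase Ehmt2 (-0.20, adjusted p = 0.0695, edgeR) and the demethylase Kdm4c (-0.57, adjusted p = 0.31, edgeR) did not pass, Kdm4c at only 3.16 to 4.69 CPM in the group means. Ehmt2 passed without wild-type replicate 2 (adjusted p = 0.0335).

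**Figure D5:**
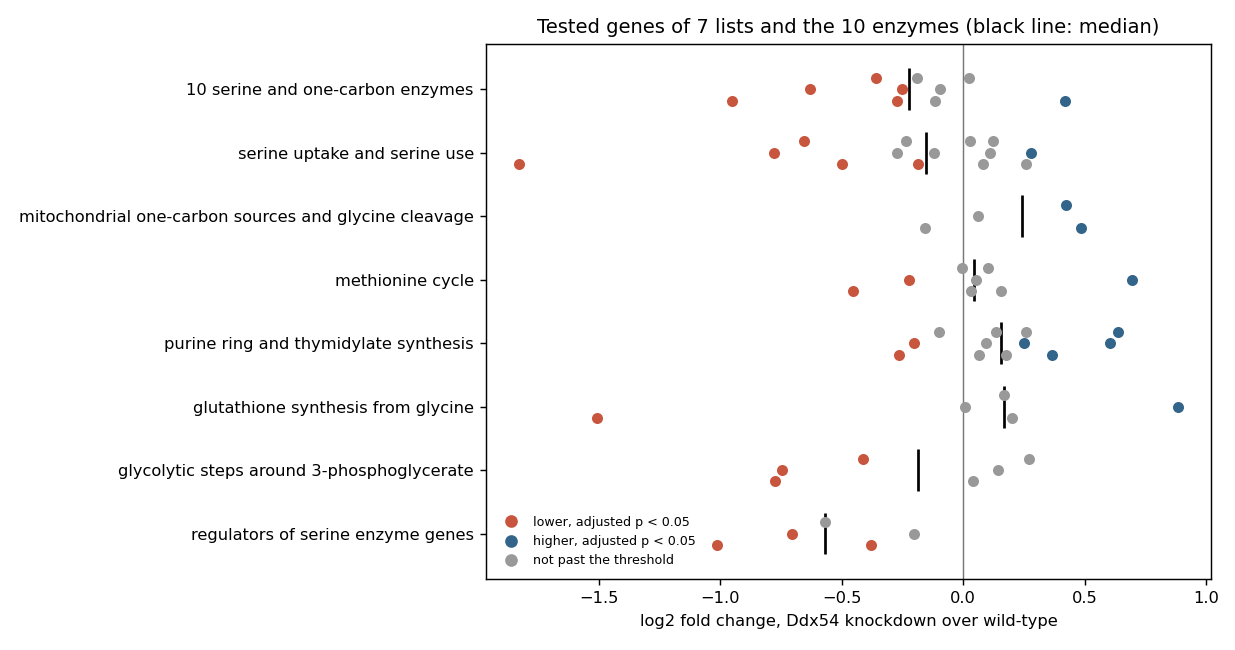
Log2 fold change of every tested gene in the 10 enzymes and in 7 of the lists (folate uptake and folate forms is not drawn), coloured by the call, with the list's median as a black line. The enzymes have a median of -0.22, and the genes of thymidylate and purine synthesis, with a median of 0.16, lie mostly on the other side of 0.

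The genes whose profile over the 7 libraries was nearest to Phgdh and to Mthfd2 were found by the root mean square distance of centred log2 CPM, among 7827 genes above 10 CPM on average. Nearest to Mthfd2 were Eif4ebp1, the translation repressor 4E-BP1, at a distance of 0.047, the small GTPase Arl3 at 0.052, Akirin2 at 0.054 and Dhrs7 at 0.058 log2 units. All 4 fell, by 0.57 to 0.63. Nearest to Phgdh were Jade1 at 0.047, Pdgfc at 0.048, Fbxo38 at 0.052 and Ino80 at 0.054 log2 units, of which none passed the test (log2 fold changes -0.12 to -0.25). The distance includes the difference between the groups, so genes near an enzyme have fold changes close to its own by selection. Their direction and calls are therefore no separate result. Such neighbours also share the libraries and their scaling with the enzyme they resemble.

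In GRCm38 with GENCODE M21 all 10 enzyme genes are protein-coding, and none lies next to another. Shmt2, Aldh1l2 and Mthfd1l are all on chromosome 10, at 127517123 to 127522444 (minus strand), 83487450 to 83534140 (minus) and 3973118 to 4167081 (plus), and Psph and Mthfd2l are on chromosome 5, at 129765558 to 129787449 (minus) and 90931117 to 91021368 (plus). Phgdh is on chromosome 3 at 98313170 to 98339990 (minus), Mthfd2 on chromosome 6 at 83305691 to 83325908 (minus) and Psat1 on chromosome 19 at 15904678 to 15947337 (minus). The cytosolic enzymes Shmt1 and Mthfd1 are on chromosome 11 at 60788104 to 60811718 (minus) and chromosome 12 at 76255298 to 76319803 (plus). Reads are summed over all exons of each gene, so the values do not separate isoforms.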

How the data were processed

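Polyadenylated RNA of 7 LLC1 libraries was analysed from 1 table of raw read counts per gene symbol deposited by the authors, with no normalization. The submitters' processing notes name Trimmomatic, STAR, HTSeq and build mm10; the annotation, the strand setting and the treatment of multi-mapping reads are not stated there. Replicates agreed less closely than sampling noise allows (chi-square per degree of freedom 8.31 to 16.3), so each library counted once. Genes were filtered with filterByExpr, scaled by TMM and tested with edgeR 4.0.16 (R 4.3.3, robust quasi-likelihood, Benjamini-Hochberg, threshold 0.05), with no covariate. The SE is the absolute fold change over the square root of F, which is approximate. The script was tested on simulated counts. Ratios used a prior count of 0.5 and an exact permutation test of the absolute difference in means. Coordinates and lengths come from GENCODE M21 (all 10 symbols matched), promoters from RefSeq on GRCm38.p6.

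The enzymes, the 8 lists and the motifs were chosen with earlier results of these data known. Named were all 10 enzymes, Ddx54, up to 4 passing genes with the largest change in each list (all of the regulators), and the 4 nearest profiles to Phgdh and Mthfd2. One gene that this rule names is not reported here. Alternatives were RLE and upper-quartile factors, no filter, at least 50 counts in 3 libraries, limma-voom (limma 3.58.1), DESeq2 1.42.0, a block for the replicate number, a prior count of 2, leaving out each library, and, added after seeing the data, another transcript length.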

Additional observations from a re-analysis of the deposited data

Results flagged for a closer look

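In the wild-type group of 4, 41 quantities (the enzymes, their ratios, the named genes, Ddx54 and library totals) were searched for a library far from the other 3. Of these, 3 had one, where chance gives about 2.05. Wild-type 4 had a log2 ratio of Shmt2 over Shmt1 of 3.33, against 3.20 in each of the others, and without it the ratio fell by 0.26 in place of 0.29. Wild-type 3 had 321 CPM of Mat2a against 271 to 275 CPM, and without it the log2 fold change of Mat2a was 0.75 in place of 0.69. Wild-type 2 had 153 CPM of Tk1 against 128 to 131 CPM, and without it the fold change of Tk1 was 0.67 in place of 0.61.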

How the results depend on the processing

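Over the 14 other settings, the calls of Psat1, Shmt2, Mthfd2, Aldh1l2 and Mthfd1 were kept in the same direction, with log2 fold changes of -0.30 to -0.22, -0.31 to -0.24, -0.69 to -0.58, -1.01 to -0.90 and 0.37 to 0.48, and Phgdh, Shmt1, Mthfd1l and Mthfd2l passed in none. The enzymes lower in knockdown numbered 4 to 5 and those higher 1. Over all tested genes, 1409 to 1860 were lower and 1222 to 1716 higher. The median of all genes moved between -0.006 and 0.014. The replicate number as a block left 5 enzymes lower and 1 higher, with 1487 genes lower and 1375 higher. Same-numbered libraries did not deviate together (r from -0.034 to -0.0063), and none of the 3 knockdown libraries correlated best with its own number. So no pairing by number was seen, but correlations this near 0 cannot exclude one. List counts moved more. Serine transport and use had 7 genes lower with upper-quartile factors and DESeq2 and 6 with limma-voom and the 50-count minimum. With the block, it had 4 lower and 2 higher, the methionine cycle 1 lower, and the glycine cleavage list 1 higher, the last also with upper-quartile factors and DESeq2. Leaving out 1 library gave 3 to 5 lower in serine transport and use and 1 to 2 higher in the glycine cleavage list. It gave 0 to 2 lower in the methionine cycle and 1 to 2 lower in purine and thymidylate synthesis. The glycolytic steps had 2 to 3 lower over all settings. The cause was not tested. With 1 library left out the ratios kept their sign, Mthfd1l over Mthfd1 at -0.58 to -0.46 and Shmt2 over Shmt1 at -0.38 to -0.22, but the smallest possible p is then 0.0667 to 0.1, so these settings cannot pass. Mthfd2l had the fewest counts, 24 to 66 per library, and the widest interval; how much of that is depth was not tested.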
